A study of Mus musculus with 12 samples.

Results

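This account describes 10 core cardiac transcription factor genes of the NK2, GATA, T-box, HAND, MEF2 and ISL families (Nkx2-5, Gata4, Gata6, Tbx5, Tbx20, Tbx18, Tbx3, Hand2, Mef2a and Isl1) in mouse HL-1 cells. They were chosen by symbol from a table of 23184 genes, and all 10 were found there. In 8 of them at least 1 library was above 0 TPM (transcripts per 1000000 transcripts, a unit scaled by transcript length). Of the 10, 5 reached the mean of 1 TPM needed for testing. HL-1 is an established mouse line of atrial origin, which the labels call a cardiac muscle cell line. The study measured RNA by sequencing in 3 groups of 4 libraries to relate gene expression to Wdr62, which encodes a protein of the spindle poles. For RE, a second virus put a pCDH construct with flag-tagged wild-type WDR62 into KD cells (genotype label WDR62+). For KD, a virus delivered a CRISPR guide to Wdr62 (genotype label WDR62-). CON cells, with a WT genotype label, received viruses carrying the pCDH and lentiCRISPRv2 vectors. All groups were grown in the same medium with fetal bovine serum. The labels name pCDH for RE and CON and not for KD, and they do not say whether the KD cells were 1 clone or a mixed population. RE was made from KD, so the RE and KD groups share that origin.

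These genes encode DNA-binding proteins that specify heart muscle and its parts. NKX2-5 and GATA4 bind together with T-box and MEF2 proteins at the control regions of contractile and ion channel genes. Within the heart, TBX5 and NKX2-5 favour working muscle, whereas TBX3, TBX18 and ISL1 are known for the sinoatrial node, the pacemaker of the right atrium, and TBX18 also marks the epicardium, the outer layer of the heart.

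Nkx2-5 and Tbx18 were the 2 factors with called differences, where called means an adjusted p under 0.05 in limma, a linear model fitted across all tested genes. The 250 bases before the start site of each are shown as the promoters of the members that moved. Of the 10 genes, 6 matched the RefSeq promoter table (build GRCm38.p6), and these windows are credited to it. The Nkx2-5 window is chr17:26841566-26841815 and the Tbx18 window is chr9:87731261-87731510, both on the minus strand and written 5′ to 3′. Capitals mark matches on either strand to GATAA (the core bound by GATA proteins), AAGTG (the core bound by NK2 proteins) or AGGTG (part of the site bound by T-box proteins).
Nkx2-5: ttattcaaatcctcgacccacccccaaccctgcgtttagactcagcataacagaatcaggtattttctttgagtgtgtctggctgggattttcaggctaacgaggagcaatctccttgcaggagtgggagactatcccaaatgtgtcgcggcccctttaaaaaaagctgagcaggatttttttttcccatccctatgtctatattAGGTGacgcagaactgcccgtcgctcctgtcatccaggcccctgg
Tbx18: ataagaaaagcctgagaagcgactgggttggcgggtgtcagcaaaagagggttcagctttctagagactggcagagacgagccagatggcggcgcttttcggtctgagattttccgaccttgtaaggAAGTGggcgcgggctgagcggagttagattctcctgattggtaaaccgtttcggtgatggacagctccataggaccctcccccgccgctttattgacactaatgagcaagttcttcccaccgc
The Nkx2-5 window held 1 AGGTG, beginning 45 bases before the start, and the Tbx18 window 1 AAGTG, beginning 123 bases before it, and GATAA was in neither. Among 32851 windows of the same length, 46.0% held AGGTG, 40.7% held AAGTG and 22.6% held GATAA on either strand, so such matches are common. The GENCODE annotation extends Nkx2-5 upstream of this RefSeq start, to position 26845009 of chromosome 17.

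The targeted gene checked the labels. Wdr62 stood at 1.47, 0.772, 0.826 and 1.99 TPM in RE, at 1.40, 0.944, 1.37 and 0.881 TPM in KD, and at 7.45, 6.61, 6.50 and 3.38 TPM in CON. Every RE and KD library lay below every CON library. The difference of KD from CON was -1.67 on the log2(TPM + 1) scale (SE 0.25, limma adjusted p = 0.000921), that of RE from CON was -1.62 (limma adjusted p = 0.00147), and RE and KD overlapped. A WDR62 construct from another species or with other codons might not be counted here, so this value is no measure of the construct. Libraries are numbered as in the deposited columns, and CON 1 to CON 4 are the columns named WT1 to WT4. RE 1, RE 3 and CON 4 stood apart: over 2268 tested genes whose longest annotated transcript exceeds 5193 bases, their median deviation from the gene mean was -0.72, -0.99 and -0.82 (log2), against -0.13 to -0.12 in RE 2 and RE 4, -0.21 to 0.56 in KD and 0.46 to 0.70 in CON 1 to CON 3. The labelled cell type was checked with 14 cardiac muscle cell markers. Of these, 4 averaged at least 1 TPM in RE, 5 in KD and 5 in CON. Their summed level was 358 to 602 TPM in RE, 317 to 424 TPM in KD and 365 to 684 TPM in CON, most of it Des for the intermediate filament desmin, which averaged 400 TPM in RE, 325 TPM in KD and 420 TPM in CON. The atrial light chain gene Myl7, cardiac actin Actc1, Actn2, Mybpc3 and Sln were listed at 0 in all 12 libraries, and the atrial hormone gene Nppa did not exceed 0.443 TPM. Other markers were detected: the atrial light chain gene Myl4 averaged 5.53 TPM in RE, 4.75 TPM in KD and 2.23 TPM in CON. The troponin genes Tnnt2 (20.2, 15.7 and 20.7 TPM) and Tnnc1 (21.4, 13.4 and 18.2 TPM in RE, KD and CON) were detected too. The markers of the labelled cell type were thus divided between detected genes and genes listed at or near 0.

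**Figure D1:**
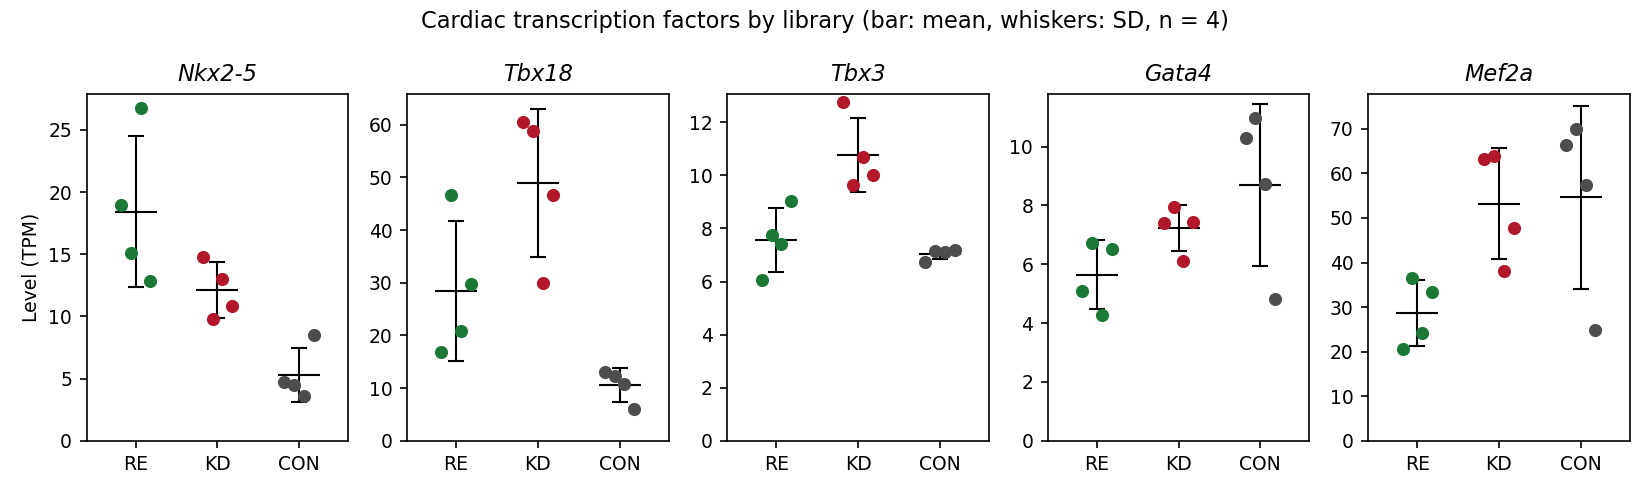
Level in TPM (y axis, from 0) of the 5 tested factors in each library of RE, KD and CON; points are libraries, horizontal bars means and whiskers SD (n = 4). For Nkx2-5 and Tbx18 every RE and KD point lies above every CON point, and for Mef2a and Gata4 the lowest CON point is CON 4.

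The levels of the 10 factors formed 2 classes. Mef2a, Tbx18, Nkx2-5, Tbx3 and Gata4 averaged between 5.31 and 54.7 TPM in each group, while the other 5 averaged no more than 0.248 TPM in any group. In RE the order was Mef2a (28.7 TPM), Tbx18 (28.5 TPM), Nkx2-5 (18.4 TPM), Tbx3 (7.56 TPM) and Gata4 (5.65 TPM), and the ranges of neighbours overlapped except between Nkx2-5 and Tbx3. In KD it was Mef2a (53.2 TPM), Tbx18 (49.0 TPM), Nkx2-5 (12.1 TPM), Tbx3 (10.8 TPM) and Gata4 (7.22 TPM), with overlap between Mef2a and Tbx18 and between Nkx2-5 and Tbx3 only. In CON, Mef2a (54.7 TPM) stood clear of Tbx18 (10.6 TPM), Gata4 (8.69 TPM), Tbx3 (7.04 TPM) and Nkx2-5 (5.31 TPM), whose neighbouring ranges overlapped. Nkx2-5 was the lowest of these 5 in CON and the third in KD and RE.

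Nkx2-5 encodes the NK2 homeodomain protein that is among the earliest markers of heart muscle precursors. It lies on chromosome 17 between 26838664 and 26845009 (GRCm38, minus strand). Its level was 18.98, 15.1, 26.7 and 12.9 TPM in RE, 14.8, 9.79, 13.01 and 10.8 TPM in KD, and 4.70, 4.44, 3.60 and 8.50 TPM in CON. All 8 RE and KD libraries were above all 4 CON libraries, and RE and KD overlapped. Relative to CON, Nkx2-5 rose in KD by a log2 fold change of 1.10 ± 0.27 (SE, limma adjusted p = 0.0229, exact two-sided permutation p = 0.0286), with means of 12.1 ± 2.24 TPM in KD and 5.31 ± 2.18 TPM in CON (SD, n = 4). The exact test of 4 against 4 cannot go below 0.0286. In RE against CON the rise was 1.63 ± 0.27 (limma adjusted p = 0.00309, exact permutation p = 0.0286), with 18.4 ± 6.09 TPM in RE. These 2 comparisons share the CON libraries. In such bulk samples fewer cells with a transcript and less RNA per cell cannot be told apart. RE and KD differed by 0.53 with a 95% interval of -0.06 to 1.13 (limma adjusted p = 0.203, exact permutation p = 0.0857). The call in KD was lost in limma without any 1 of CON 1 (adjusted p = 0.0652), CON 2 (0.0699), CON 3 (0.0795), KD 1 (0.0825) and KD 4 (0.0526), and under median-of-ratios scaling (0.0981) and quantile normalization (0.116), with log2 fold changes of 0.96 to 1.14 in these fits. The RE call was kept in all of these fits, with an adjusted p of at most 0.0150 when 1 library was left out.

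Tbx18 encodes a T-box repressor of the sinus horns, the sinoatrial node and the epicardium. It lies on chromosome 9 between 87702800 and 87731260 on the minus strand. Its level was 16.8, 46.7, 20.8 and 29.7 TPM in RE, 60.5, 58.8, 30.0 and 46.7 TPM in KD, and 13.1, 12.3, 10.8 and 5.95 TPM in CON. Again every RE and KD library was above every CON library, with RE 1 the closest. KD averaged 49.0 ± 14.1 TPM against 10.6 ± 3.21 TPM in CON (SD, n = 4), a ratio of means of 4.65. The log2 fold change was 2.12 ± 0.34 (SE, limma adjusted p = 0.00173, exact permutation p = 0.0286), and this call held in every alternative run, with values of 1.89 to 2.33 when 1 library was left out. RE averaged 28.5 ± 13.3 TPM, and its rise over CON was 1.30 ± 0.34 (limma adjusted p = 0.0405, exact permutation p = 0.0286). That call was lost in limma without any 1 of CON 1 (adjusted p = 0.0656), CON 2 (0.0754), CON 3 (0.0987), KD 1 (0.0546), KD 2 (0.0573), KD 4 (0.0651), RE 2 (0.0935), RE 3 (0.0574) and RE 4 (0.0831), with a filter of 5 TPM (0.0516) or none (0.0508), and with RE and CON fitted alone. Between RE and KD the log2 difference was -0.82, with a 95% interval of -1.55 to -0.08 (limma adjusted p = 0.162, exact permutation p = 0.0571), and RE 2 lay within the KD range.

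Tbx3 encodes the T-box repressor that keeps the working muscle program off in the conduction system. It lies on chromosome 5 between 119670669 and 119684724 on the plus strand. Its level was 6.06, 7.74, 7.42 and 9.04 TPM in RE, 12.8, 9.63, 10.7 and 10.0 TPM in KD, and 6.75, 7.14, 7.11 and 7.17 TPM in CON. Every KD library was above every RE and every CON library. Its log2 difference was 0.54 ± 0.17 in KD against CON (limma adjusted p = 0.0615, exact permutation p = 0.0286) and -0.46 ± 0.17 in RE against KD (limma adjusted p = 0.139, exact permutation p = 0.0286), so neither passed the threshold of 0.05 over all genes, and the sign in RE against KD turned with the length correction described below (0.08). Without CON 4 the difference of KD from CON passed (0.55, limma adjusted p = 0.0440). In that fit 1116 of all 11774 tested genes were called higher in KD than CON. RE and CON overlapped, at a difference of 0.08 with a 95% interval of -0.29 to 0.45 (limma adjusted p = 0.739). With the length correction that difference was 0.59 (limma adjusted p = 0.141).

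Gata4 encodes the zinc finger partner of NKX2-5 and TBX5. It lies on chromosome 14 between 63198922 and 63271692 on the minus strand. Its level was 5.10, 6.72, 4.26 and 6.51 TPM in RE, 7.41, 7.93, 6.10 and 7.43 TPM in KD, and 10.3, 10.97, 8.72 and 4.82 TPM in CON. The groups overlapped in each comparison, through CON 4 where CON was involved. The log2 difference of KD from CON was -0.19 (95% interval -0.71 to 0.33, limma adjusted p = 0.735), that of RE from KD -0.32 (-0.84 to 0.21, limma adjusted p = 0.345, but 0.14 with quantile normalization) and that of RE from CON -0.51 (-1.03 to 0.01, limma adjusted p = 0.184). Without CON 4 the difference of RE from CON was -0.74 (limma adjusted p = 0.00831). That of KD from CON was then -0.42 (limma adjusted p = 0.131). In that fit 4946 of all 11774 tested genes were called lower in RE than CON, with a median difference of all tested genes of -0.41. With the length correction described below, the Gata4 difference of RE from CON was -0.22 (95% interval -0.46 to 0.03, limma adjusted p = 0.212).

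Mef2a encodes a MADS-box protein that binds contractile gene promoters in heart and skeletal muscle. It lies on chromosome 7 between 67231163 and 67372858 on the minus strand, where Lysmd4 (mean 6.60 TPM) overlaps it on the opposite strand. Whether counting used the strand is not given, so reads of the shared stretch cannot be told apart. Its level was 20.6, 36.4, 24.3 and 33.4 TPM in RE, 63.3, 63.8, 38.2 and 47.6 TPM in KD, and 66.5, 69.9, 57.4 and 24.9 TPM in CON. Every RE library was below every KD library, and CON 4 lay among the RE libraries. The log2 difference of RE from KD was -0.87 ± 0.32 (limma adjusted p = 0.139, exact permutation p = 0.0286), that of RE from CON -0.84 ± 0.32 (limma adjusted p = 0.132, exact permutation p = 0.0857), and that of KD from CON 0.03 with a 95% interval of -0.66 to 0.72 (limma adjusted p = 0.976). Without CON 4, RE was called lower than KD (-0.87, limma adjusted p = 0.0328) and lower than CON (-1.18, limma adjusted p = 0.00286). The difference of KD from CON was then -0.30 (limma adjusted p = 0.360). In that fit 2338 of all 11774 tested genes were called lower in RE than KD, and 4946 lower in RE than CON. The median differences of all tested genes were -0.29 and -0.41 in these comparisons.

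These calls can be set beside those over all 11774 tested genes. In KD against CON, 2 of the 5 tested factors were called higher and 0 lower, where 6.60% of tested genes were called higher, 3.61% lower and 10.2% in either direction. The groups of 3 factors did not overlap, as for 18.9% of tested genes. In RE against CON, 2 of 5 were called higher and 0 lower, where 2.70% of tested genes were called higher, 3.63% lower and 6.33% in either direction, and 2 did not overlap, against 9.22%. In RE against KD, limma called 0 of 5, where 0.187% of tested genes were called higher, 0.858% lower and 1.04% in either direction, while 3 of 5 had an unadjusted p under 0.05, against 28.01% of tested genes, and 2 did not overlap, against 14.3%. The median log2 difference of the 5 factors was 0.54 in KD against CON, -0.46 in RE against KD and 0.08 in RE against CON, beside medians of all tested genes of -0.01, -0.29 and -0.28. Median-of-ratios scaling moved the median of all genes in RE against KD from -0.29 to 0.002, and the difference of Tbx18 was then -0.50, that of Mef2a -0.56 and that of Nkx2-5 0.84, none of them called.

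**Figure D2:**
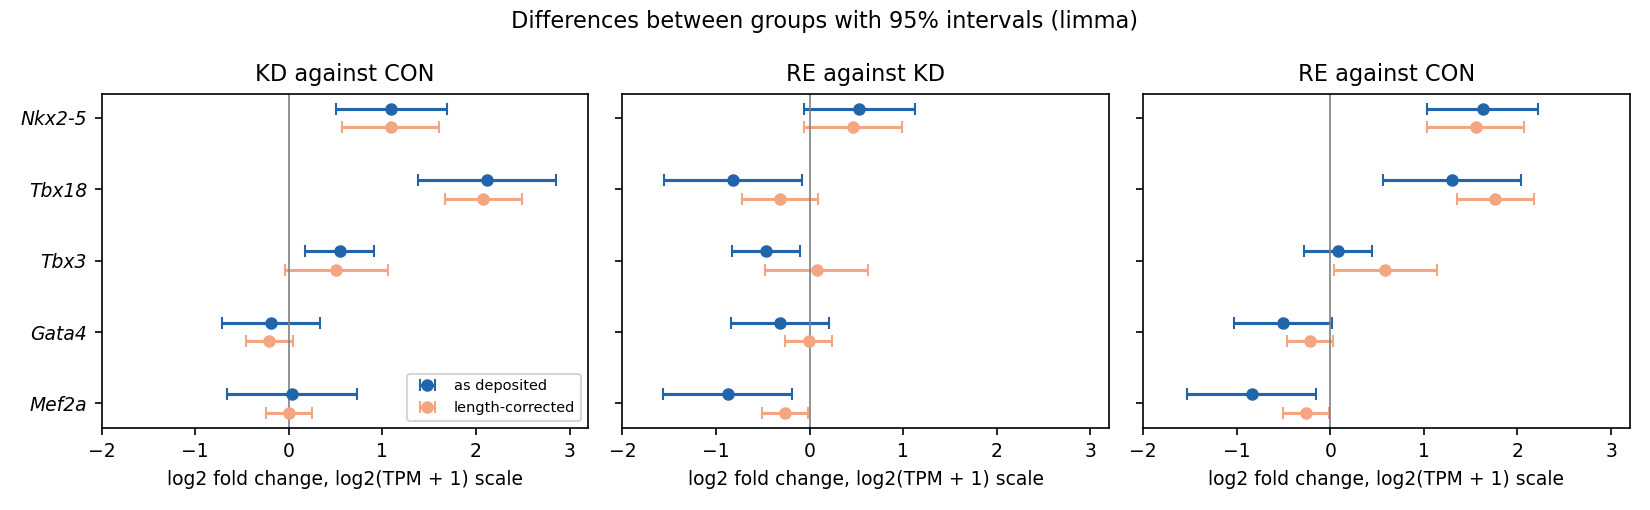
log2 fold change with its 95% interval (x axis, log2(TPM + 1) scale) of the 5 tested factors in each comparison, from the values as deposited and after subtraction of the trend on transcript length. The Nkx2-5 and Tbx18 intervals lie above 0 in KD against CON and RE against CON on both scales, and the Mef2a estimates in RE move from -0.87 and -0.84 towards 0.

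Within each group, Mef2a, Gata4 and Tbx18 were lowest in the libraries whose long transcripts were low. The longest annotated transcripts are 1525 bases for Nkx2-5, 3400 for Gata4, 4679 for Tbx18, 4982 for Tbx3 and 5538 for Mef2a. In RE 1, RE 3 and CON 4 the deviation of Mef2a from its mean was -0.99, -0.77 and -0.73 (log2) and that of Gata4 -0.38, -0.60 and -0.45. Tbx18 deviated there by -0.46, -0.17 and -1.82. In the same libraries Nkx2-5, the shortest, deviated by 0.81, 1.28 and -0.26, which were the highest 2 RE values and the highest CON value. After a smooth trend on length was subtracted from each library, the standard error of Mef2a was 0.11 in place of 0.32 and that of Gata4 0.11 in place of 0.24. That of Tbx18 was 0.19 in place of 0.34. The Mef2a difference of RE from KD was then -0.27 (95% interval -0.51 to -0.02, limma adjusted p = 0.171) and that of RE from CON -0.26 (limma adjusted p = 0.137). The Gata4 difference of RE from KD was -0.01 (limma adjusted p = 0.96). Those of RE and KD from CON were -0.22 and -0.21 (limma adjusted p = 0.212 and 0.217). For Tbx3 the standard error was larger (0.25 in place of 0.17), and its difference of RE from KD turned to 0.08 (limma adjusted p = 0.859). Its difference of RE from CON was then 0.59 (95% interval 0.03 to 1.14, limma adjusted p = 0.141). That of KD from CON was 0.51 (95% interval -0.04 to 1.06, limma adjusted p = 0.175). Nkx2-5 and Tbx18 kept their calls: in KD against CON the length-corrected log2 fold changes were 1.09 (limma adjusted p = 0.00745) and 2.08 (1.66e-05), and in RE against CON 1.55 (0.00127) and 1.77 (8.02e-05). For Tbx18 the length-corrected difference of RE from KD was -0.31, with a 95% interval of -0.72 to 0.09.

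**Figure D3:**
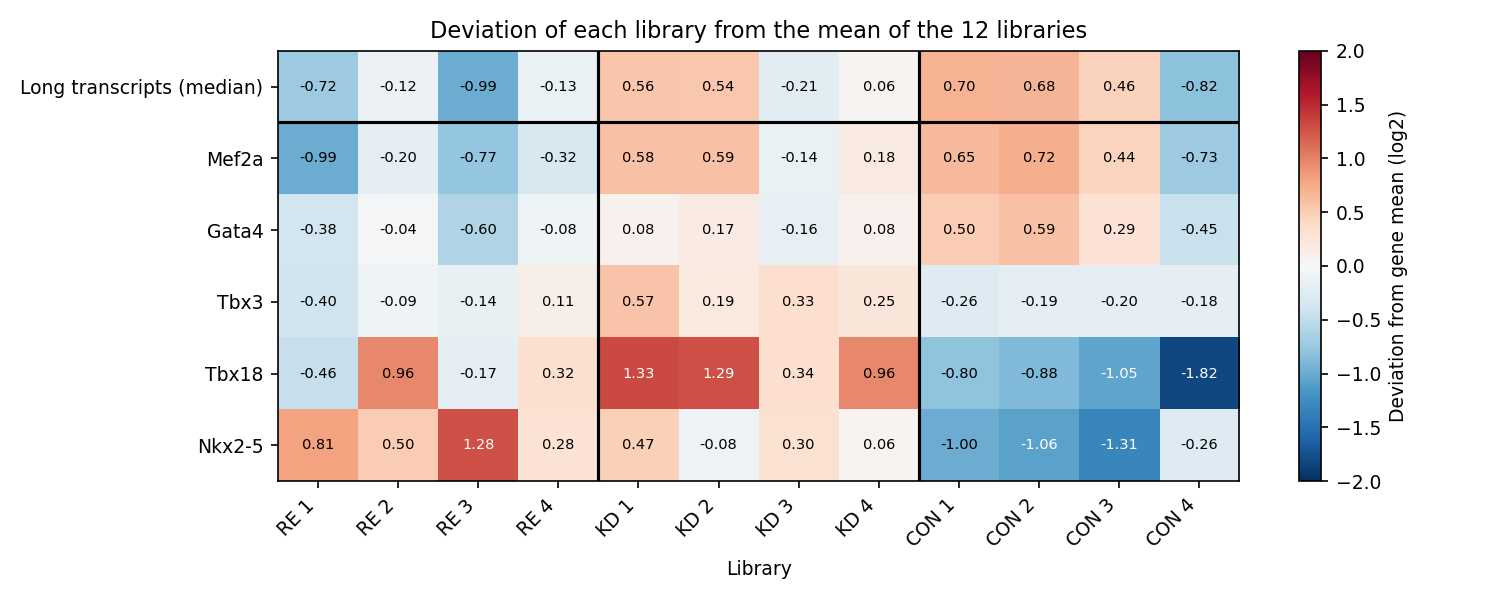
Deviation of each library (columns, RE then KD then CON) from the gene mean over 12 libraries (log2, colour and number) for the median of the long transcripts (top row) and the 5 tested factors. The Mef2a and Gata4 rows are low in RE 1, RE 3 and CON 4 as the top row is, and the Tbx18 and Nkx2-5 rows are below 0 in all 4 CON libraries.

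The other 5 factors were at or near 0. Gata6, a close relative of Gata4 in heart and gut, was listed at 0 in all 4 RE and all 4 KD libraries, against 0.157, 0.234, 0.313 and 0.289 TPM in CON. The exact permutation p was 0.0286 for KD against CON and for RE against CON, the smallest possible. With no filter on low values, over 17096 genes, limma called Gata6 lower in KD (adjusted p = 0.000229) and in RE (adjusted p = 0.000244) than in CON, in a fit where its 8 RE and KD values, all listed at 0, add no spread. A value of 0 in such a table can be a failed estimate, so no fold is given. Tbx5, a gene of the left ventricle and atria whose human counterpart is mutated in Holt-Oram syndrome, was at 0, 0.273, 0.029 and 0.029 TPM in RE and was listed at 0 in KD and CON (exact permutation p = 0.143 for RE against KD). Isl1, the LIM-homeodomain gene of the second heart field, was at 0.061 TPM in CON 2 and listed at 0 in the other 11 libraries. Tbx20, a T-box gene of the heart chambers, and Hand2, a basic helix-loop-helix gene of the right ventricle, were listed at 0 in all 12 libraries. Tbx3 and Tbx5 are neighbours, 147943 bases apart on chromosome 5, and their mean levels were 7.56 and 0.083 TPM in RE, 10.8 and 0 TPM in KD, and 7.04 and 0 TPM in CON.

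**Figure D4:**
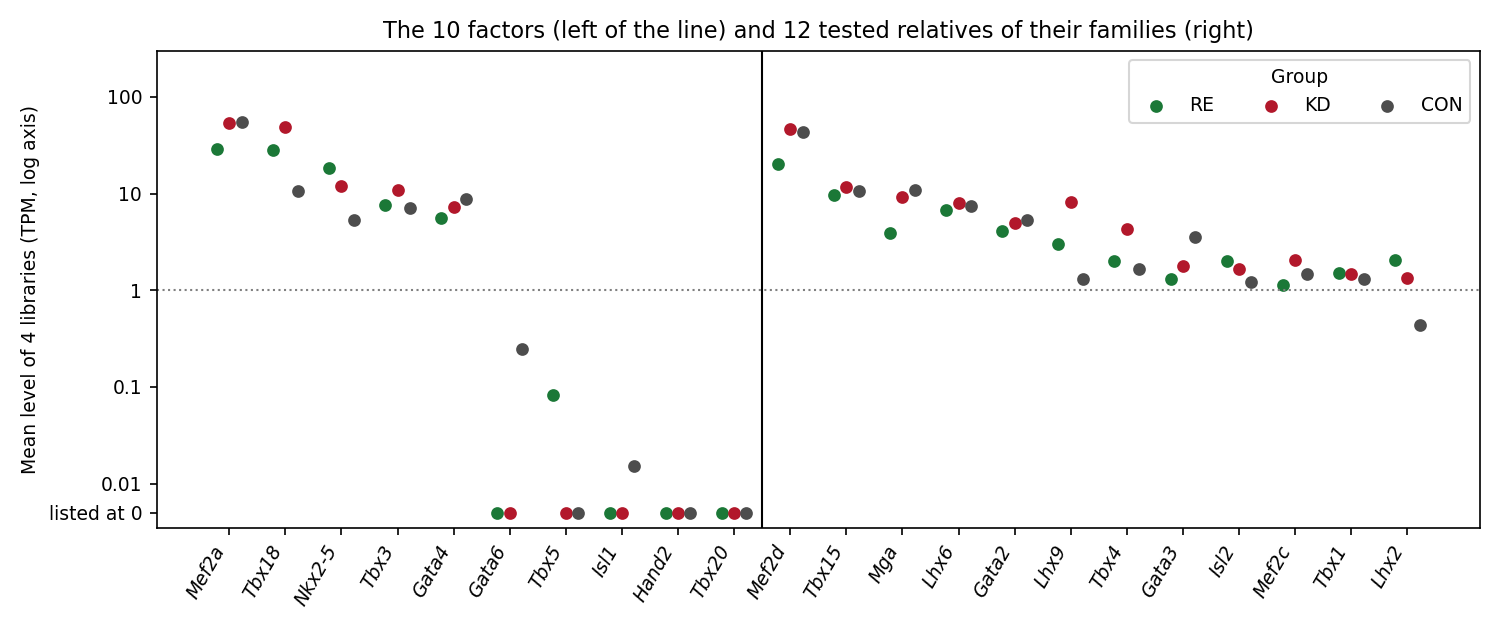
Mean level of 4 libraries (TPM, log axis, with listed at 0 at the foot) in RE, KD and CON for the 10 factors, left of the line, and the 12 tested relatives, right of it. The dotted line marks 1 TPM; 5 factors lie above it in all groups, 5 lie below it, and Mef2d is the highest relative.

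Relatives in the same families were also divided between expressed genes and genes at 0. Of 36 further NK2, GATA, T-box, HAND, MEF2 and ISL or LHX genes, 14 were listed at 0 in every library, among them Hand1, Gata5 and Nkx2-6, and 12 were tested. In KD against CON 3 rose and 0 fell, beside 6.60% of all tested genes called higher, with a list median of 0.23 beside -0.01 for all tested genes. They were Lhx9, a LIM-homeodomain gene (1.92 ± 0.36, limma adjusted p = 0.00467, 8.21 ± 3.99 TPM in KD and 1.30 ± 0.55 TPM in CON), Tbx4 of the hind limb and lung (1.03 ± 0.27, limma adjusted p = 0.0296) and Lhx2 (0.73 ± 0.17, limma adjusted p = 0.0185). The call of Tbx4 was lost without any 1 of CON 1, CON 3, KD 1, KD 2 and KD 4 (largest limma adjusted p = 0.0855), and with a pseudocount of 0.1 (0.0599). That of Lhx2 was lost without any 1 of CON 1, CON 3 and KD 2 (largest 0.0728) and with quantile normalization (0.0862). Thus 1 of the 12 was called without CON 1, CON 3 or KD 2. In RE against CON Lhx2 rose (1.12 ± 0.17, limma adjusted p = 0.00168) and Gata3, a GATA gene of lymphocytes and trophoblast, fell by 0.98 (SE 0.21, limma adjusted p = 0.0136). Gata3 lost its call without CON 1 or CON 2 (adjusted p = 0.0552 and 0.0559), which left 1 called, as well as with the 2 groups fitted alone (0.0686) and with quantile normalization (0.0608). Without CON 4, 4 of the 12 were called in RE against CON, beside 6219 of all 11774 tested genes. The highest relative was Mef2d, at 20.2 TPM in RE, 46.2 TPM in KD and 43.3 TPM in CON, whereas Mef2c stood at 1.13 TPM, 2.04 TPM and 1.48 TPM in these groups.

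Most cofactors and other cardiac transcription factors were not called. Of 45 listed, 32 were tested, and in KD against CON 3 rose, 1 fell and 28 were not called, beside 10.2% of all tested genes called (list median 0.07, beside -0.01 for all tested genes). Hdac9 and Hdac5, class II histone deacetylases that bind and repress MEF2 proteins, rose by 1.04 ± 0.25 (limma adjusted p = 0.0181) and 0.77 ± 0.16 (limma adjusted p = 0.00831). Hdac5 averaged 109 ± 8.04 TPM in KD and 64.5 ± 11.2 TPM in CON. Irx2, an Iroquois homeobox gene, rose by 0.82 ± 0.21 (limma adjusted p = 0.0288). Smarcd3, the chromatin remodelling subunit BAF60C that works with TBX5 and GATA4, fell to 17.5 ± 4.75 TPM in KD, against 34.7 ± 3.25 TPM in CON (-0.98 ± 0.19, limma adjusted p = 0.00530). The call of Hdac9 was lost without CON 2, CON 3, KD 1 or KD 2 (adjusted p of up to 0.0638), and that of Irx2 without any CON library but CON 4 or any KD library but KD 3 (largest 0.103). That of Hdac5 was lost with the length correction (adjusted p = 0.137) and under median-of-ratios scaling (0.0683). The list counted 2 calls without CON 2, CON 3, KD 1 or KD 2 and 7 without CON 4, where 2412 of all 11774 tested genes were called.

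Most muscle genes that these factors regulate were not expressed at a level that could be tested. Of 38 working muscle genes, 11 were listed at 0 in every library and 9 were tested. Of all 23184 genes, 6088 were listed at 0 in every library and 11774 were tested. In KD against CON 1 of these rose and 0 fell (list median 0.30 beside -0.01), beside 6.60% of all tested genes called higher, and 2 rose without KD 3. It was Ldb3, for a protein of the Z-disc, which averaged 19.7 ± 1.57 TPM in KD and 7.50 ± 1.80 TPM in CON (1.31 ± 0.25, limma adjusted p = 0.00507). The atrial connexin gene Gja5 averaged no more than 0.0468 TPM in any group, whereas Gja1 averaged 552 TPM in RE, 818 TPM in KD and 670 TPM in CON. Atp2a2 of the same list averaged 131, 253 and 227 TPM in these groups. Of 12 further sinoatrial node genes, 3 were listed at 0 in every library, among them the pacemaker channel gene Hcn4, and 3 were tested: Shox2, Gjc1 and Bmp4. Bmp4 alone was called, lower in KD and in RE than in CON, beside 3.61% and 3.63% of all tested genes called lower. In both comparisons 2 were called, both lower, without CON 4 and without CON 4, RE 1 and RE 3. The same count was reached with array weights, the length correction, median-of-ratios scaling, quantile normalization or no filter. It was reached as well without RE 3 in the first comparison and without RE 4 in the second. Of all tested genes, array weights called 6433 and 6386, and the length correction 2434 and 1465 of 11339. Median-of-ratios scaling called 1570 and 1095, and quantile normalization 1904 and 1178. Without CON 4, 2412 and 6219 of all 11774 tested genes were called in these comparisons. Shox2, a homeobox gene that opposes NKX2-5 in the node, stood at 31.2 TPM in RE, 49.4 TPM in KD and 38.9 TPM in CON. Gjc1 averaged 8.52 TPM in RE, 9.57 TPM in KD and 20.5 TPM in CON. Its log2 difference from CON was -0.95 in KD and -1.17 in RE, not called with the main settings.

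Of 29 genes for signals that act on the heart fields, 16 were tested. In KD against CON 1 rose and 2 fell, beside 6.60% of all tested genes called higher and 3.61% lower (list median -0.21 beside -0.01). Without CON 4, 5 were called, beside 2412 of all 11774 tested genes. Fgf10, a growth factor gene of the second heart field, averaged 154 ± 41.8 TPM in KD and 63.7 ± 13.7 TPM in CON (1.24 ± 0.27, limma adjusted p = 0.0104). Bmp4, for a signal known to induce cardiac genes, averaged 46.5 ± 6.52 TPM in RE, 60.2 ± 8.77 TPM in KD and 99.4 ± 8.55 TPM in CON. It fell by 0.72 in KD (SE 0.15, limma adjusted p = 0.00844) and by 1.09 in RE against CON (SE 0.15, limma adjusted p = 0.000735). Bmp5 fell by 2.06 in KD against CON (SE 0.51, limma adjusted p = 0.0217), a call lost without any CON library but CON 4 or any KD library but KD 1 (largest 0.0723) and with the 2 groups fitted alone (0.0523). It fell by 2.92 in RE against CON (SE 0.51, limma adjusted p = 0.00393). Among the 16 signals 0 rose and 2 fell in RE against CON. Without CON 4, 11 were called there, beside 6219 of all 11774 tested genes.

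The 2 tested epicardial markers were lower in RE and KD than in CON, while Tbx18, which that tissue also expresses, was higher. Of 10 other epicardial genes listed these 2 passed the filter. Both fell in KD against CON and in RE against CON, where 3.61% and 3.63% of all tested genes were called lower. Tcf21, Upk1b and Aldh1a2 were listed at 0 in every library, and Upk3b, Lrrn4 and Krt8 averaged no more than 0.0252 TPM in any group. Sema3d averaged 1.17 TPM in CON and was listed at 0 in RE and KD. The mesothelial surface gene Msln averaged 25.7 ± 0.75 TPM in RE, 28.1 ± 3.24 TPM in KD and 110.5 ± 9.26 TPM in CON. Its log2 difference from CON was -2.06 in RE and -1.94 in KD (SE 0.13, limma adjusted p = 1.06e-06 and 1.51e-06). The keratin gene Krt19 averaged 0.794 ± 0.524 TPM in RE, 1.29 ± 0.67 TPM in KD and 26.5 ± 7.89 TPM in CON. Its log2 difference from CON was -3.94 in RE and -3.59 in KD (SE 0.28, limma adjusted p = 2.86e-06 and 5.95e-06). Wt1, the epicardial zinc finger gene, averaged 0.084 TPM in RE, 0.206 TPM in KD and 1.06 TPM in CON and was below the filter.

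Against KD, no gene of these lists was called in RE: limma called 0 of the 72 tested, while 23 had an unadjusted p under 0.05, as did 28.01% of all tested genes. Their median log2 difference was -0.43, beside -0.29 for all tested genes. The length correction called 1 cofactor higher and 1 working muscle gene lower, beside 239 of 11339 tested genes. Median-of-ratios scaling called 1 cofactor higher, beside 78 of all 11774. Quantile normalization called 1 cofactor higher, and 1 working muscle gene and 1 signal lower, beside 164. Array weights called 18 cofactors and 10 signals, among others, beside 5305. Without CON 4, limma called 4 family relatives, 12 cofactors, 4 working muscle genes, 1 sinoatrial node gene and 4 signals, all but 1 of them lower in RE. In that fit 2791 of all 11774 tested genes were called, 2338 of them lower in RE. In RE against CON, 1 rose and 5 fell among the 72 (median -0.33, beside -0.28). None of the cofactors was called there (0 of 32). The length correction called 4 of 30 higher and 1 lower, and 3 of 9 working muscle genes higher. With it, 852 of 11339 tested genes were called higher and 613 lower. Median-of-ratios scaling called 2 cofactors higher and 1 lower, beside 1095 of all tested genes called. Quantile normalization called 2 higher and 2 lower, beside 1178. Without CON 4, 16 cofactors were called, 2 higher and 14 lower. In that fit 6219 of all 11774 tested genes were called in RE against CON, 4946 of them lower.

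Markers of other cell types were also measured. Of 10 fibroblast markers, 7 averaged at least 1 TPM in each group, with a summed level of 1590 to 2600 TPM in RE, 3020 to 4300 TPM in KD and 2790 to 4340 TPM in CON. Most of it was Col3a1, which averaged 1612 TPM in RE, 2913 TPM in KD and 2955 TPM in CON, and Lum and Tcf21 were listed at 0 in every library. Of 6 smooth muscle markers 5 averaged at least 1 TPM in each group, with sums of 351 to 1560 TPM in RE, 786 to 1220 TPM in KD and 570 to 1160 TPM in CON. Acta2 made up most of these sums, averaging 840 TPM in RE, 801 TPM in KD and 794 TPM in CON, and Myh11 did not exceed 0.108 TPM. The 8 skeletal muscle markers in the table summed to 8.41 to 15.2 TPM in RE, 8.16 to 11.9 TPM in KD and 23.7 to 41.0 TPM in CON, and the 6 epicardial markers to 25.8 to 27.8 TPM, 25.5 to 34.8 TPM and 127 to 150 TPM in the same groups. Most of the epicardial sum was Msln. The 6 immune cell markers summed to 15.0 to 23.7 TPM in RE, 12.6 to 18.5 TPM in KD and 4.71 to 8.29 TPM in CON, while the 7 endothelial markers did not exceed a sum of 1.20 TPM in any library. Most of the immune sum was Cd68 (means of 8.88, 7.58 and 5.55 TPM in RE, KD and CON) and Lyz2 (10.4, 7.15 and 0.924 TPM). Csf1r did not exceed 0.722 TPM and Ptprc 0.0434 TPM in any library. The skeletal, epicardial and immune sums thus separated CON from the other groups as Nkx2-5 and Tbx18 did, and their part in those differences was not tested.

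The genes most like Nkx2-5 and Tbx18 were sought among 10023 genes with a mean of at least 5 TPM, by the mean absolute difference of log2 values centred on each gene's mean over the 12 libraries. For Nkx2-5 they were Fam162a, a mitochondrial protein gene (0.20), Catip (0.20) and Sbsn, which encodes the secreted protein suprabasin (0.21). Catip, for example, averaged 7.37 ± 2.29 TPM in RE, 6.35 ± 0.12 TPM in KD and 2.32 ± 1.25 TPM in CON. For Tbx18 they were Arhgef6, a guanine exchange factor gene (0.14), Rassf2 (0.19) and Dram1, a lysosomal membrane protein gene (0.20). Arhgef6 averaged 11.95 ± 5.09 TPM in RE, 23.7 ± 7.27 TPM in KD and 4.22 ± 1.47 TPM in CON.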

How the data were processed

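RNA of 12 HL-1 libraries (4 each of RE, KD and CON) was sequenced after TRIzol extraction, per the labels' protocols. The authors deposited 1 table of TPM for 23184 gene symbols, whose columns each sum to 1000000, so the depth is unknown and no counting interval is given. Trim Galore 0.6.6, TopHat2 2.1.1, Cufflinks 2.2.1 and the mm10 build are named, per the submitters' processing notes; no source used here gives the step that made TPM. TPM was taken to log2(TPM + 1), where a fold change understates that of low genes, and 11774 genes averaging at least 1 TPM entered limma 3.58.1 (R 4.3.3, 1 mean per group, all 12 libraries, mean-variance trend, two-sided), with Benjamini-Hochberg adjustment over all tested genes and a threshold of 0.05. Members were also tested with exact permutations of 4 against 4 values (scipy 1.17.1), whose p-values were not adjusted.

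Whether the replicates were separate cultures is not stated, and p-values may thus reflect technical spread alone. The WT columns were taken as CON by their genotype label; their numbers tie them to no single sample. The treatment fields of KD and RE samples differ from sample to sample in the number after Cas or WDR, and the groups were taken from the titles. Positions and transcript lengths are those of GENCODE M21 (GRCm38), which 96.3% of tested genes matched. The members, 6 gene lists and 7 marker lists were chosen with earlier results of these data known. Members are all named; of each list up to 4 called genes with the largest change are named per comparison, the list counts leave out the 10 factors, and 3 genes most like each called factor are given. Genes named for their level alone, such as Mef2d, Shox2 and Wt1, were chosen after their values were seen. Alternatives were a pseudocount of 0.1, quantile normalization, median-of-ratios scaling, no filter or one of 5 TPM, a length correction (loess, span 0.5), array weights, the 2 compared groups alone, a replicate block, and leaving out 1 library or CON 4, RE 1 and RE 3.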

Additional observations from a re-analysis of the deposited data

Results flagged for a closer look

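In 5 cases 1 library of 4 lay far from the other 3, by Dixon's test of the gap against the group's range at the 95% level. For normally distributed values chance alone passes this level in about 1 of 20 groups, and 63 groups were checked. That rate does not hold for groups with values listed at 0, such as those of Tbx5 and Isl1. Tbx5 was at 0.273 TPM in RE 2 against 0 to 0.029 TPM in the other RE libraries. Isl1 was at 0.061 TPM in CON 2 and listed at 0 in the rest of CON, a case where any single value above 0 would be flagged. Tbx3 was at 6.75 TPM in CON 1 against 7.11 to 7.17 TPM. CON 4 stood apart for Ldb3, at 4.81 TPM against 8.20 to 8.49 TPM, and for Bmp5, at 2.46 TPM against 18.3 to 19.0 TPM. CON 4 is also the CON library with low long transcripts.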

How the results depend on the processing

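In KD against CON, Tbx18 kept its call under all 21 alternatives run for it, as Nkx2-5 did in RE against CON, and Wdr62 kept its call wherever it was tested. In KD against CON, 2 factors and 1202 genes were called. Array weights called 4 and 6433, leaving out CON 4, RE 1 and RE 3 called 4 and 4636, quantile normalization 1 and 1904, median-of-ratios scaling 1 factor, and the length correction 2434 genes. With 1 library left out, 1 to 3 factors and 744 (without KD 2) to 2412 genes (without CON 4) were called. In RE against KD, 0 factors and 123 genes were called. Array weights called 2 and 5305, the length correction 239 genes, median-of-ratios scaling 78, the 2 groups alone 49, and leaving out the 3 libraries 50. With 1 library left out, 0 to 1 factors and 13 (without KD 2) to 2791 genes (without CON 4) were called. In RE against CON, 2 factors and 745 genes were called. Array weights called 4 and 6386, leaving out the 3 libraries 4 and 3781, the 2 groups alone 1 and 409, a filter of 5 TPM 1 and 452, the length correction 1465 genes and quantile normalization 1178. With 1 library left out, 1 to 4 factors and 417 (without CON 3) to 6219 genes (without CON 4) were called. Of the called genes, 64.6% were higher in KD than CON, against 54.2% with the length correction. In RE against KD the share was 17.9%, against 48.1% with the length correction and 41.0% with median-of-ratios scaling, and in RE against CON 42.7%, against 58.2% and 54.3% with these settings. The cause of these moves was not tested.

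Some differences not called as deposited turned sign. In RE against KD, that of Gata4 did so with quantile normalization (0.14) and that of Tbx3 with the length correction (0.079). The Mef2a difference of KD from CON turned with array weights (-0.13) and without the 3 libraries (-0.30). It turned too without CON 4 (-0.30), KD 1 (-0.058) or KD 2 (-0.062), and kept its sign without CON 2 (0.18). The shared numbers of RE and KD do not pair the libraries: deviations of same-numbered libraries correlated across genes at -0.55, 0.65, 0.24 and -0.25, and 1 of 4 KD libraries correlated best with its own number. With the replicate block, limma called 15 genes in RE against KD, and 24 with the length correction too (Tbx3 again 0.079), and 0 factors either way. No paired analysis was possible for comparisons with CON because its columns carry no number tied to a sample. With no filter, 3 factors were called in KD against CON (2 higher and Gata6 lower) and 2 in RE against CON (Nkx2-5 higher and Gata6 lower). Depth is unknown, so a value of 0 sets no limit on a gene's level. Each group of 4 may hold a single cell population, which the labels do not settle.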
